A study of Rattus norvegicus with 4 samples.

Results

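The genes described here encode the 3 TGF-beta ligands (Tgfb1, Tgfb2 and Tgfb3), the signalling receptors Tgfbr1 and Tgfbr2, the latent TGF-beta binding proteins Ltbp1, Ltbp2, Ltbp3 and Ltbp4, and the inhibitory Smad gene Smad7. They were taken by symbol from the deposited gene table, where 10 of 10 symbols were found among 17768 genes. The values come from RNA sequencing of 4 libraries of NRK-52E, an established rat kidney cell line labelled as proximal tubular epithelium. The 2 lv_Mettl3 libraries are labelled as a line made with a lentivirus that carries murine Mettl3 cDNA in the vector pLVX-IRES-Puro, selected with 0.5 mg/ml puromycin and kept in 0.25 mg/ml puromycin with 10% serum. For the 2 lv_nc libraries the labels repeat the same protocol and do not say what nc stands for or what their virus carried. All 4 libraries have the treatment label untreated, so no TGF-beta or other ligand is recorded as added. Neither separate cultures nor the number of clones behind a stable line is stated, so the p-values reflect differences among these 4 libraries only, and these may be technical.

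TGF-beta is secreted as a dimer that stays bound to its own propeptide, and latent TGF-beta binding proteins tie this inactive complex to fibrillin and other matrix proteins. Release of the ligand lets it bind the type II receptor, which phosphorylates the type I receptor, which in turn phosphorylates Smad proteins that enter the nucleus. In kidney tubules the pathway is known for its part in fibrosis, and Smad7 is a target gene of the pathway that limits it. Mettl3 encodes the enzyme that writes N6-methyladenosine on messenger RNA.

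Mettl3 itself did not separate the groups. Its normalized read counts were 757 and 700 in lv_Mettl3 replicates 1 and 2, against 719 and 767 in lv_nc replicates 1 and 2 (limma log2 fold change -0.03, adjusted p = 0.931). Every direction given here thus compares libraries by their titles, lv_Mettl3 with lv_nc, and reads from the murine cDNA were not analysed here. Recovered gene reads numbered 15068898 to 16622255 per library. Replicates differed from each other by an SD of 0.287 in lv_Mettl3 and 0.413 in lv_nc on the log2 scale, over 10051 genes whose mean was 100 or more. Of the epithelial markers, Krt8, a keratin of simple epithelia, had 28296 to 33065 normalized reads and Tjp1, a tight junction scaffold, had 10903 to 12378. Cdh1, which encodes E-cadherin, had at most 8.79, Krt19 at most 2.12 and Cldn1 at most 1.85. Of the proximal tubule markers, Lrp2 was at 0 in both lv_Mettl3 libraries and at most 1.95 in lv_nc, and Aqp1 was at 6.46 or less. Cubn had 7.42 to 20.3, Anpep 9.54 to 24.8 and Slc5a2 20.3 to 39.3 normalized reads. Ggt1, a brush border peptidase, had 3294 and 3757 in lv_Mettl3, against 2412 and 2530 in lv_nc. Of the 6 proximal tubule markers found, 4 had a DESeq2 adjusted p. Ggt1 was the only one called, as higher (DESeq2 log2 fold change 0.51, adjusted p = 0.0345, limma adjusted p = 0.378). Over all genes DESeq2 called 1.45% higher.

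The question put to these genes was which of them differed between the libraries labelled lv_Mettl3 and those labelled lv_nc. Ltbp3 and Ltbp4, which encode matrix tethers of latent TGF-beta, were lower in lv_Mettl3, at 0.658 and 0.642 times their mean in lv_nc. Ltbp1 and Tgfbr1 were also lower, at 0.832 and 0.825 times their mean in lv_nc. The receptor gene Tgfbr2 was 1.34 times as high, Ltbp2 was 1.28 times and Smad7 1.13 times as high. The 3 ligand genes lay between 0.869 and 1.07 times their mean in lv_nc. None of the 10 genes passed limma at an adjusted p of 0.05, a rule that called 0.0183% of the 16391 genes tested. At an unadjusted p under 0.05 limma had 5 of them, 2 higher and 3 lower, where 10.5% of all genes met that rule. DESeq2 on the recovered reads called 2 of the 10, Ltbp3 and Ltbp4, both lower. Over 12601 genes DESeq2 called 2.52% in either direction and 1.07% lower. With edgeR (quasi-likelihood) 0 of the 10 were called, beside 0.0305% of all genes.

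In 8 of the 10 genes both libraries of a group lay above both of the other, 4 of them with lv_Mettl3 higher and 4 with it lower. That was so for 45% of all genes tested, and for 48% of the 6354 genes whose mean was 500 or more, the range in which all 10 lie. The median log2 fold change of the 10 was -0.05, beside 0.01 over all genes tested. Limma fold changes were above 0 for 5 of the 10 and below 0 for the other 5.

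**Figure D1:**
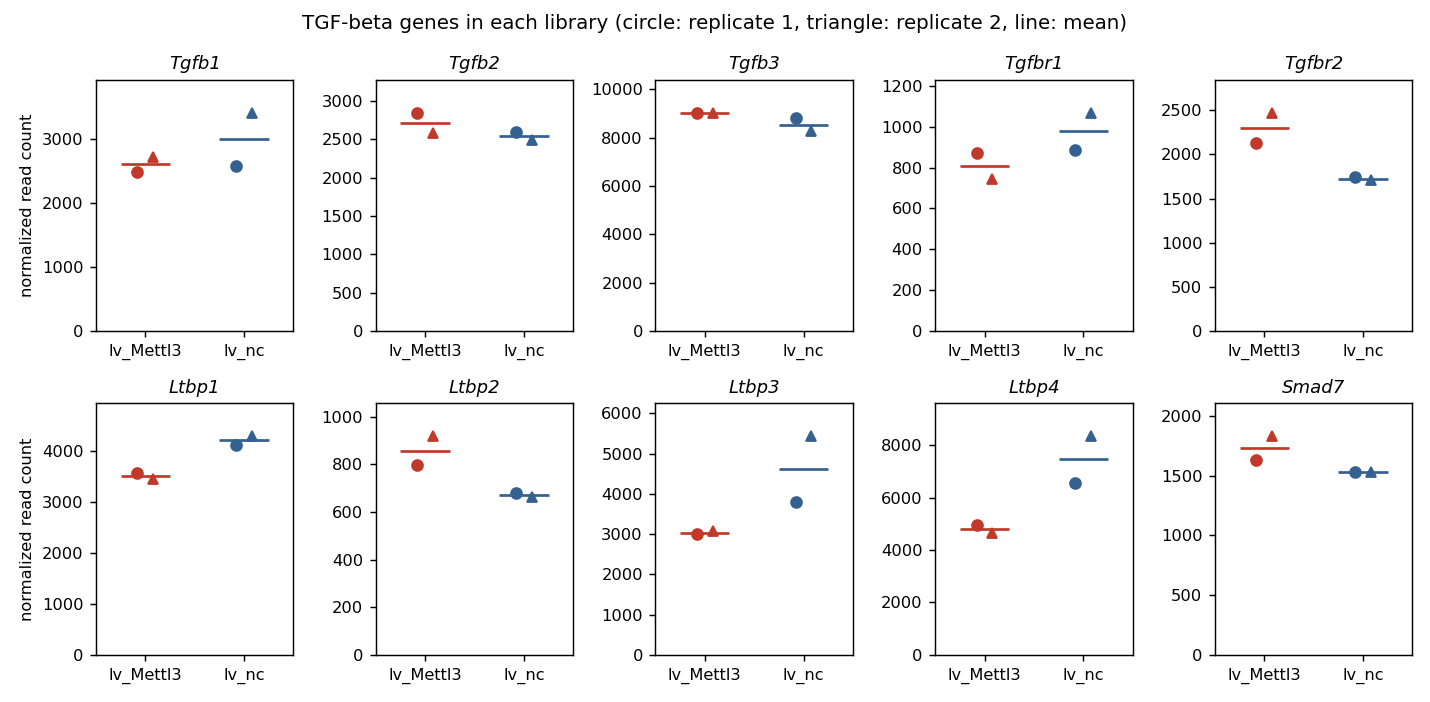
Normalized read counts (y axis, from 0) of the 10 genes in the 2 lv_Mettl3 and the 2 lv_nc libraries (x axis), with a line at each group mean. Ltbp4 and Ltbp3 are lower in both lv_Mettl3 libraries, and lv_nc replicate 2 (triangle) lies well above lv_nc replicate 1 in Ltbp3, Ltbp4 and Tgfb1.

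**Figure D2:**
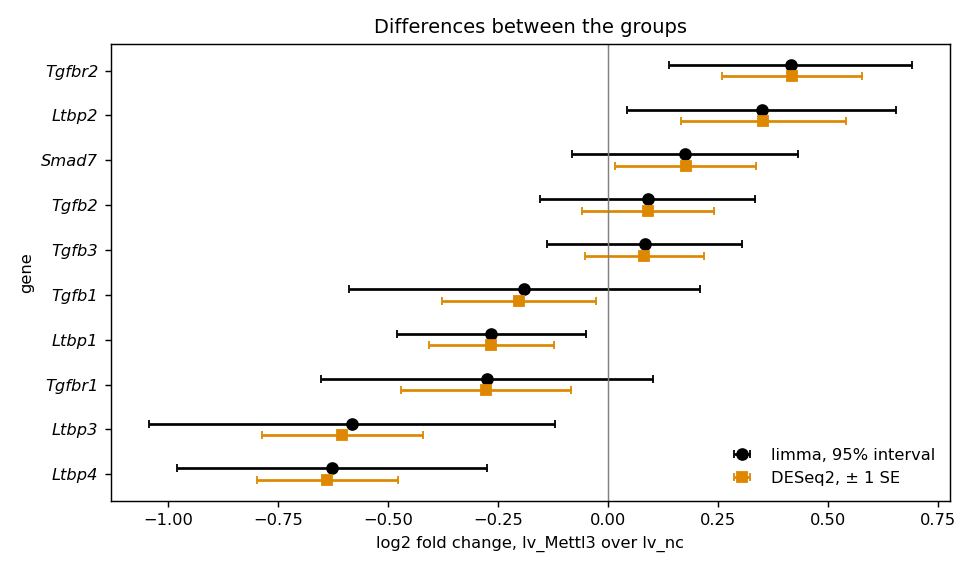
Log2 fold change of lv_Mettl3 over lv_nc (x axis) for each gene (y axis), from limma with 95% intervals and from DESeq2 with 1 SE. The fold changes run from -0.63 for Ltbp4 to 0.41 for Tgfbr2 in limma, and the unadjusted 95% intervals of Ltbp1, Ltbp3 and Ltbp4 lie below 0 and those of Tgfbr2 and Ltbp2 above it.

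Among the ligands, Tgfb3 was the most abundant in every library. It had 9040 and 9038 normalized reads in lv_Mettl3, against 8809 and 8267 in lv_nc, and both lv_Mettl3 libraries lay just above both lv_nc libraries. The difference was small (limma log2 fold change 0.08, 95% interval -0.14 to 0.305, adjusted p = 0.728). Tgfb2 had 2849 and 2576 in lv_Mettl3, against 2600 and 2493 in lv_nc, so the groups overlapped (log2 fold change 0.09, 95% interval -0.16 to 0.33, limma adjusted p = 0.734). Tgfb1, the ligand most often linked to fibrosis, had 2486 and 2716 in lv_Mettl3, against 2578 and 3411 in lv_nc. The groups overlapped, and lv_nc replicate 2 stood above the other 3 libraries. Its limma log2 fold change was -0.19 (95% interval -0.59 to 0.21, adjusted p = 0.656). Without lv_nc replicate 2 that value was 0.01 and without lv_nc replicate 1 it was -0.39, so the size and sign for Tgfb1 rested on which lv_nc library was kept.

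Levels of different genes can be compared only per gene length, and for this TPM were computed from the recovered reads and the deposited gene lengths. On that scale Tgfb3 averaged 427 ± 3.13 TPM in lv_Mettl3 and 416 ± 8.53 in lv_nc (SD, n = 2 libraries each). Tgfb1 averaged 150 ± 8.30 in lv_Mettl3 and 179 ± 39.5 in lv_nc, and Tgfb2 averaged 77.8 ± 6.09 in lv_Mettl3 and 75.4 ± 0.387 in lv_nc. The summed ligand level was 656 and 655 TPM in lv_Mettl3, against 649 and 693 in lv_nc. Tgfb3 made up 65.5% and 64.9% of it in lv_Mettl3, against 65.1% and 59.2% in lv_nc. The share of Tgfb1 was 22.0% and 23.9% in lv_Mettl3, against 23.3% and 29.9% in lv_nc. These shares overlapped between the groups. Tgfb3 stood at the 98.0th percentile of mean TPM among the genes tested.

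The receptor genes differed in direction. Tgfbr2 encodes the type II receptor, the kinase that binds the ligand first. It had 2133 and 2473 normalized reads in lv_Mettl3, against 1740 and 1706 in lv_nc, and the lv_Mettl3 libraries lay above both lv_nc libraries, which were nearly equal. Its limma log2 fold change was 0.41 (SE 0.11, 95% interval 0.14 to 0.69, unadjusted p = 0.0118, adjusted p = 0.408), and its DESeq2 adjusted p was 0.183. The type I receptor gene Tgfbr1 had 873 and 742 in lv_Mettl3, against 888 and 1069 in lv_nc. Both lv_Mettl3 libraries were below both lv_nc libraries, but the log2 difference between lv_Mettl3 replicate 1 and lv_nc replicate 1 was only -0.03 (limma log2 fold change -0.28, 95% interval -0.65 to 0.10, adjusted p = 0.54). In TPM the ratio of Tgfbr2 to Tgfbr1 within a library was 5.15 and 7.02 in lv_Mettl3, against 4.13 and 3.36 in lv_nc. This ratio does not depend on the scaling between libraries. It was higher in both lv_Mettl3 libraries, with a two-sided exact permutation p of 0.333, which is the smallest that 2 libraries against 2 can give.

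Tgfbr2 lies on chromosome 8 (124312754 to 124399494) and Tgfbr1 on chromosome 5 (63050758 to 63119635) in the deposited table, whose genome build is not given in the sources used here. Per gene length Tgfbr2 averaged 102 ± 9.94 TPM in lv_Mettl3 and 79.1 ± 0.825 in lv_nc, and Tgfbr1 averaged 17.0 ± 2.07 in lv_Mettl3 and 21.4 ± 3.31 in lv_nc (SD, n = 2 each). Tgfbr1 was thus among the lowest of the 10 genes in both groups, with Ltbp2 next to it.

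The latency proteins held the calls. Ltbp4 (chromosome 1, 84118046 to 84150084, minus strand) had 4939 and 4644 normalized reads in lv_Mettl3, against 6574 and 8344 in lv_nc. Both lv_Mettl3 libraries were below both lv_nc libraries, and the gap between the nearest pair was -0.41 on the log2 scale. Ltbp4 fell in the DESeq2 test (log2 fold change -0.64, SE 0.16, adjusted p = 0.00621). Its limma log2 fold change was -0.63 (SE 0.14, 95% interval -0.98 to -0.28, unadjusted p = 0.00582, adjusted p = 0.385). Ltbp3 (chromosome 1, 221099998 to 221116096, plus strand) had 2998 and 3078 in lv_Mettl3, against 3808 and 5430 in lv_nc. The lv_Mettl3 libraries were close to each other and below both lv_nc libraries, which were far apart. Ltbp3 fell in the DESeq2 test (log2 fold change -0.60, SE 0.18, adjusted p = 0.0405), with a limma log2 fold change of -0.58 (SE 0.18, adjusted p = 0.452). The authors' deposited table gives the same log2 fold changes, -0.64 for Ltbp4 and -0.60 for Ltbp3, with adjusted p of 0.00621 and 0.0405. These equal the DESeq2 values on the same reads and are not separate evidence.

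The other latency genes were not called by any of the 3 tests. Ltbp1, which encodes the founding member of the family, had 3555 and 3436 normalized reads in lv_Mettl3, against 4120 and 4283 in lv_nc. The groups did not overlap and replicates were close in each (limma log2 fold change -0.27, SE 0.08, unadjusted p = 0.0245, adjusted p = 0.452, DESeq2 adjusted p = 0.523). Ltbp2, whose human protein binds no latent TGF-beta and is found with elastic fibres, had 796 and 918 in lv_Mettl3, against 681 and 661 in lv_nc. Here the lv_Mettl3 libraries were the higher ones (log2 fold change 0.35, SE 0.12, unadjusted p = 0.0323, adjusted p = 0.465, DESeq2 adjusted p = 0.526). Poisson counting error was between 1.05% and 3.79% of the reads of these 10 genes in a library, whereas lv_nc replicate 2 was 1.43 times lv_nc replicate 1 in Ltbp3 and 1.27 times in Ltbp4. In these 2 genes the lv_nc libraries thus differed by more than counting error, as they did in Tgfb1 (ratio 1.32) and Tgfbr1 (1.20). The same ratio was 0.997 in Smad7 and 0.980 in Tgfbr2. In those, however, lv_Mettl3 replicate 2 was 1.12 times (Smad7) and 1.16 times (Tgfbr2) lv_Mettl3 replicate 1.

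In TPM the 4 latency genes summed to 286 and 278 in lv_Mettl3, against 359 and 466 in lv_nc. Ltbp4 averaged 111 ± 5.63 TPM in lv_Mettl3 and 179 ± 34.3 in lv_nc, and Ltbp3 averaged 85.7 ± 0.960 in lv_Mettl3 and 135 ± 36.7 in lv_nc (SD, n = 2 each). Ltbp1 averaged 69.3 ± 2.17 in lv_Mettl3 and 86.0 ± 4.46 in lv_nc, and Ltbp2 averaged 15.8 ± 1.47 in lv_Mettl3 and 12.8 ± 0.0427 in lv_nc. Ltbp4 was the most abundant of the 4 and Ltbp2 the least in every library. Within a library Ltbp4 took 40.3% and 38.5% of the summed level in lv_Mettl3, against 43.1% and 43.6% in lv_nc. The share of Ltbp2 was 5.17% and 6.06% in lv_Mettl3, against 3.55% and 2.75% in lv_nc. The ratio of Ltbp4 to Ltbp3 was 1.35 and 1.24 in lv_Mettl3, against 1.42 and 1.26 in lv_nc, and overlapped. The summed latency level per summed ligand level was 0.436 and 0.425 in lv_Mettl3, against 0.553 and 0.673 in lv_nc. That ratio was lower in both lv_Mettl3 libraries, with an exact two-sided permutation p of 0.333, again the smallest possible.

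**Figure D3:**
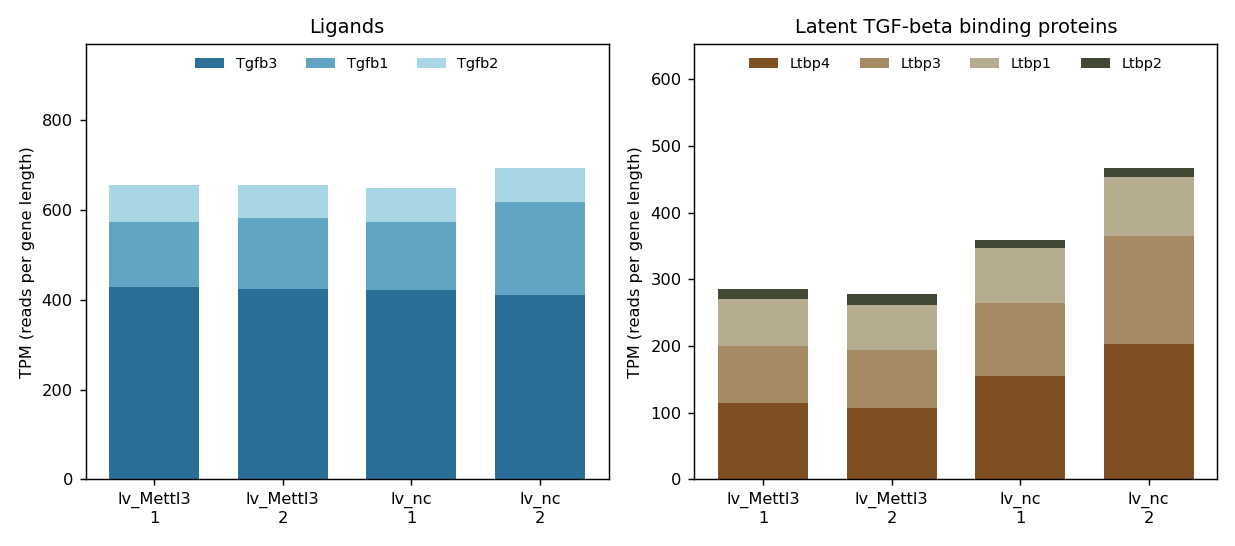
Stacked TPM of the ligand genes (left) and the latency genes (right) in each library (x axis), y axis from 0. The ligand bars are 649 to 693 TPM high in all 4 libraries, whereas the latency bars are 286 and 278 TPM in lv_Mettl3, against 359 and 466 in lv_nc.

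The 250 bases upstream of the annotated starts of the 4 latency genes are shown because Ltbp3 and Ltbp4 were lower together while Ltbp2 lay the other way. For each gene a single annotated start was used, and which start these cells use was not measured. They are RefSeq sequences of build GRCr8, at chr6:26177302-26177551 (minus strand) for Ltbp1, chr6:110257299-110257548 (minus strand) for Ltbp2, chr1:212458955-212459204 (plus strand) for Ltbp3 and chr1:91759808-91760057 (minus strand) for Ltbp4. Capitals mark matches on either strand to GGGCGG (GC box), CCAAT, and TGACGTCA (cyclic AMP response element), which do not overlap in these windows.
Ltbp1: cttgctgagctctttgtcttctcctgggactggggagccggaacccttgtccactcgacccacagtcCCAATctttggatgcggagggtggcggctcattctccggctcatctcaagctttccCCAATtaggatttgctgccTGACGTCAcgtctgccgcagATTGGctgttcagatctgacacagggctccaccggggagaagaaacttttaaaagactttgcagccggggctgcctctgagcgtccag
Ltbp2: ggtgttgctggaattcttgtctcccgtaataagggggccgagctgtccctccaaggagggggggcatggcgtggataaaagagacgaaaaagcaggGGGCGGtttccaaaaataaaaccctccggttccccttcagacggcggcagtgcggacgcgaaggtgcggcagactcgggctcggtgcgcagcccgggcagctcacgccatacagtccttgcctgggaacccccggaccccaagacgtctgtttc
Ltbp3: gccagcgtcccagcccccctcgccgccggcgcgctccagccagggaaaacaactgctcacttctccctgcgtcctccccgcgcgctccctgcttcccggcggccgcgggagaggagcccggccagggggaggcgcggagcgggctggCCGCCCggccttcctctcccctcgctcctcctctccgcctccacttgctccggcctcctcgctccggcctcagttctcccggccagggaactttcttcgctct
Ltbp4: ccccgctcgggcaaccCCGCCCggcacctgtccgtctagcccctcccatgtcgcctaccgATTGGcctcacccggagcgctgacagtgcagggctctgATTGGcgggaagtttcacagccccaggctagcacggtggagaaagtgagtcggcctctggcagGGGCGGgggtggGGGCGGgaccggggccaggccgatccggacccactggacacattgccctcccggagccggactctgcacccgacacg

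The windows of Ltbp3 and Ltbp4 were the richest of the 4 in G and C, at 74.0% and 70.4%. Ltbp1, also lower in both lv_Mettl3 libraries, had 56.8% and Ltbp2 had 61.6%, beside a median of 52.0% over 27457 rat promoters. Of the 10 genes, Smad7 (78.0%) and Tgfbr1 (75.6%) had richer windows than Ltbp3 and were not called. Smad7 was higher in both lv_Mettl3 libraries. Ltbp4 held 3 GC boxes and 2 CCAAT matches, Ltbp3 and Ltbp2 held 1 GC box each, and Ltbp1 held 3 CCAAT matches and the only cyclic AMP response element. Of all 27457 windows, 32.4% held a GC box, 34.3% held CCAAT and 1.7% held TGACGTCA. All 10 genes matched the RefSeq table, and 6 of 10 held a GC box and 4 of 10 held CCAAT. Neither TATAAA (13.1% of all windows) nor CAGACA (16.9%), the only Smad element searched for, was found in any of the 10 windows. Shorter or other letters that Smad proteins bind were not searched for, so their absence is not shown. The matches are descriptions of letters, and no binding was measured.

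Smad7, the inhibitory Smad that blocks the type I receptor, had 1632 and 1829 normalized reads in lv_Mettl3, against 1534 and 1529 in lv_nc. The lv_Mettl3 libraries were both higher, and the lv_nc libraries were almost equal. The difference did not pass a test (limma log2 fold change 0.17, 95% interval -0.08 to 0.43, adjusted p = 0.554, DESeq2 adjusted p = 0.86). Per gene length Smad7 averaged 49.9 ± 3.66 TPM in lv_Mettl3 and 45.6 ± 1.00 in lv_nc (SD, n = 2 each).

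Ordered by TPM in lv_Mettl3, the 10 genes ran Tgfb3, Tgfb1, Ltbp4, Tgfbr2, Ltbp3, Tgfb2, Ltbp1, Smad7, Tgfbr1 and Ltbp2. Ltbp4 (107 to 115 TPM) and Tgfbr2 (95.3 to 109 TPM) overlapped there, as did Tgfbr1 and Ltbp2. In lv_nc the order was Tgfb3, Tgfb1, Ltbp4, Ltbp3, Ltbp1, Tgfbr2, Tgfb2, Smad7, Tgfbr1 and Ltbp2. There Tgfb1 (151 to 207 TPM), Ltbp4 (155 to 203 TPM) and Ltbp3 (109 to 161 TPM) overlapped. Some of these genes lie near each other in the deposited table, with 1.62 Mb between Tgfb1 and Ltbp4 on chromosome 1 and 1.32 Mb between Ltbp2 and Tgfb3 on chromosome 6.

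Leaving out 1 library at a time changed the calls. No direction of the latency genes turned, but this was given in advance, since their groups did not overlap with all libraries kept. Without lv_nc replicate 2 the DESeq2 log2 fold change was -0.46 for Ltbp4 (adjusted p = 0.00412) and -0.33 for Ltbp3 (adjusted p = 0.244). Without lv_nc replicate 1 it was -0.80 for Ltbp4 (adjusted p = 8.06e-12) and -0.84 for Ltbp3 (adjusted p = 3.8e-11), and DESeq2 then also called Tgfb1 lower and Tgfbr2 higher. Without lv_Mettl3 replicate 1 or 2 the DESeq2 adjusted p was 0.814 or 1 for Ltbp4 and 1 in both cases for Ltbp3, with log2 fold changes of -0.69 and -0.60 for Ltbp4 and -0.59 and -0.63 for Ltbp3. In each of these fits a group is left with 1 library, which is assumed to vary like the other group. Across the 18 alternative settings the adjusted p ran from 8.06e-12 to 1 for Ltbp4 and from 3.8e-11 to 1 for Ltbp3.

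**Figure D4:**
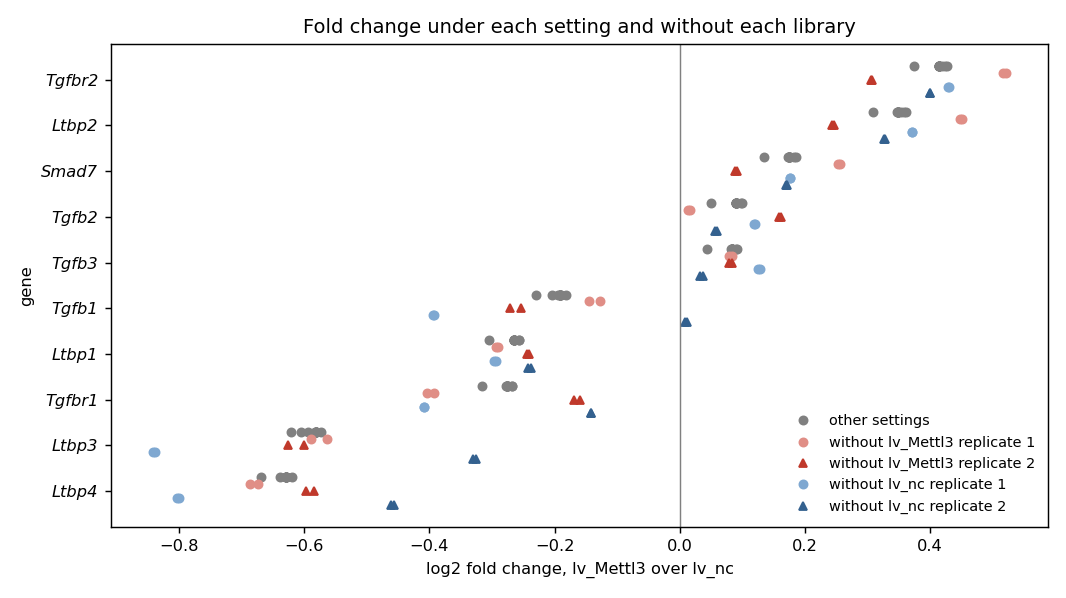
Log2 fold change of lv_Mettl3 over lv_nc (x axis) for each gene (y axis) under each setting, with the fits that leave out a library in colour. Ltbp3 runs from -0.84 to -0.33 and Ltbp4 from -0.80 to -0.46, both set by which lv_nc library is kept, and Tgfb1 is the only gene whose values reach both sides of 0.

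Other genes of the pathway were read from a list sorted by role, 92 of whose 98 symbols were matched. Limma called 0 of the 91 tested and had 4 higher and 16 lower at an unadjusted p under 0.05, where 5.54% of all genes were higher and 4.93% lower by that rule. The edgeR test called 0. DESeq2 called 9 of the 79 it gave an adjusted p, 1 higher and 8 lower, beside 1.45% higher and 1.07% lower over all genes. The median limma log2 fold change was -0.09, beside 0.01 over all genes. The DESeq2 count was 1 without lv_Mettl3 replicate 1, 1 without lv_Mettl3 replicate 2, 17 without lv_nc replicate 1 and 8 without lv_nc replicate 2.

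The signalling core held no DESeq2 call, where 2.52% of all genes were called, so lists this short say little. Of the 8 co-receptor and other receptor genes with a DESeq2 adjusted p, 0 were called, with Bmpr1a, a BMP type I receptor, at 2215 ± 40.9 normalized reads in lv_Mettl3 and 2238 ± 30.5 in lv_nc. Bmpr2, the BMP type II receptor, had 1764 ± 4.59 in lv_Mettl3 and 1694 ± 8.79 in lv_nc. Of 6 Smad genes with an adjusted p, DESeq2 likewise called 0. Smad4, the partner shared by all receptor-activated Smads, had 1382 ± 24.3 in lv_Mettl3 and 1323 ± 12.7 in lv_nc, and the inhibitory Smad6 had 1512 ± 125 in lv_Mettl3 and 1363 ± 110 in lv_nc. DESeq2 called 0 of 13 Smad regulators, among them the ubiquitin ligase gene Smurf2 at 4868 ± 414 in lv_Mettl3 and 4445 ± 768 in lv_nc, and Pmepa1, a Smad-binding inhibitor, at 2642 ± 253 in lv_Mettl3 and 2961 ± 313 in lv_nc. The medians of these 3 lists were 0.04, 0.06 and -0.04 on the log2 scale.

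Genes that store or activate latent TGF-beta gave 2 DESeq2 calls among 14 with an adjusted p, both lower. Over all genes DESeq2 called 1.07% lower. The list median of the 19 tested by limma was -0.27, with 5 of them above 0 and 14 below. Lrrc32, Fbn2, Mmp2, Mmp9 and Fmod were all below 0. They had 18.5 normalized reads or fewer in every library and no DESeq2 adjusted p. Fbn1, a fibrillin gene chosen after its values were seen, was higher in lv_Mettl3. It had 190 and 224 normalized reads there, against 129 and 75.7 in lv_nc (DESeq2 log2 fold change 1.02, adjusted p = 0.122, limma adjusted p = 0.452). Bgn, which encodes the matrix proteoglycan biglycan, had 12692 and 12038 normalized reads in lv_Mettl3, against 16246 and 21045 in lv_nc (DESeq2 log2 fold change -0.59, adjusted p = 0.0134, limma adjusted p = 0.405). Mmp14, a membrane-bound metalloproteinase, had 3663 and 4090 in lv_Mettl3, against 4991 and 6176 in lv_nc (DESeq2 log2 fold change -0.53, adjusted p = 0.0441, limma adjusted p = 0.408). In both, as in Ltbp3 and Ltbp4, lv_nc replicate 2 was the highest library.

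Genes known to rise after TGF-beta in epithelial cells gave 6 DESeq2 calls among 24, all lower, beside 1.07% called lower over all genes. Of the 26 tested by limma, 9 had a log2 fold change above 0 and 17 below it, with a median of -0.18. The called genes were the fibrillar collagen genes Col1a1, Col1a2 and Col3a1, the smooth muscle actin gene Acta2, the growth factor gene Pdgfb and the transcription factor gene Snai1. Pdgfb had 153 and 126 normalized reads in lv_Mettl3, against 283 and 435 in lv_nc (DESeq2 log2 fold change -1.37, adjusted p = 0.000906), and Snai1 had 94.4 and 88.9 in lv_Mettl3, against 179 and 288 in lv_nc (DESeq2 log2 fold change -1.35, adjusted p = 0.00902). The other called genes had DESeq2 log2 fold changes of -2.72 (Col1a1), -2.29 (Col1a2), -2.12 (Col3a1) and -1.15 (Acta2). Across the 6 called genes the limma adjusted p ran from 0.214 (Col3a1) to 0.452 (Acta2). Of the well-known target genes, the 3 described here were not called. Ccn2, the connective tissue growth factor gene, had 26548 and 26583 in lv_Mettl3, against 20783 and 10720 in lv_nc (limma log2 fold change 0.83, adjusted p = 0.471, DESeq2 adjusted p = 0.638). Tgfbi had 23.3 and 27.9 in lv_Mettl3, against 11.7 and 23.1 in lv_nc. Skil, a Smad co-repressor gene, had 2039 and 1903 in lv_Mettl3, against 1981 and 1917 in lv_nc. Ccn1 and Snai2, of the same list, were chosen after their values were seen. Ccn1, which encodes a matricellular protein, had 7134 and 6496 in lv_Mettl3, against 4746 and 1047 in lv_nc, and was not called (limma log2 fold change 1.61, adjusted p = 0.500, DESeq2 adjusted p = 0.796). Snai2, a transcription factor gene, had 210 and 213 in lv_Mettl3, against 167 and 73.9 in lv_nc, and was not called either (limma log2 fold change 0.92, adjusted p = 0.502, DESeq2 adjusted p = 0.410).

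On the BMP side, DESeq2 called 1 of 13 ligand and antagonist genes, beside 2.52% of all genes. Bmp4, a BMP ligand gene, had 2841 and 2991 normalized reads in lv_Mettl3, against 2046 and 1364 in lv_nc (DESeq2 log2 fold change 0.77, adjusted p = 0.00729, limma adjusted p = 0.405). Of 6 BMP target genes DESeq2 called 0, with Id1 at 6829 ± 191 in lv_Mettl3 and 6173 ± 215 in lv_nc, and Id3 at 6827 ± 238 in lv_Mettl3 and 6421 ± 13.6 in lv_nc.

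**Figure D5:**
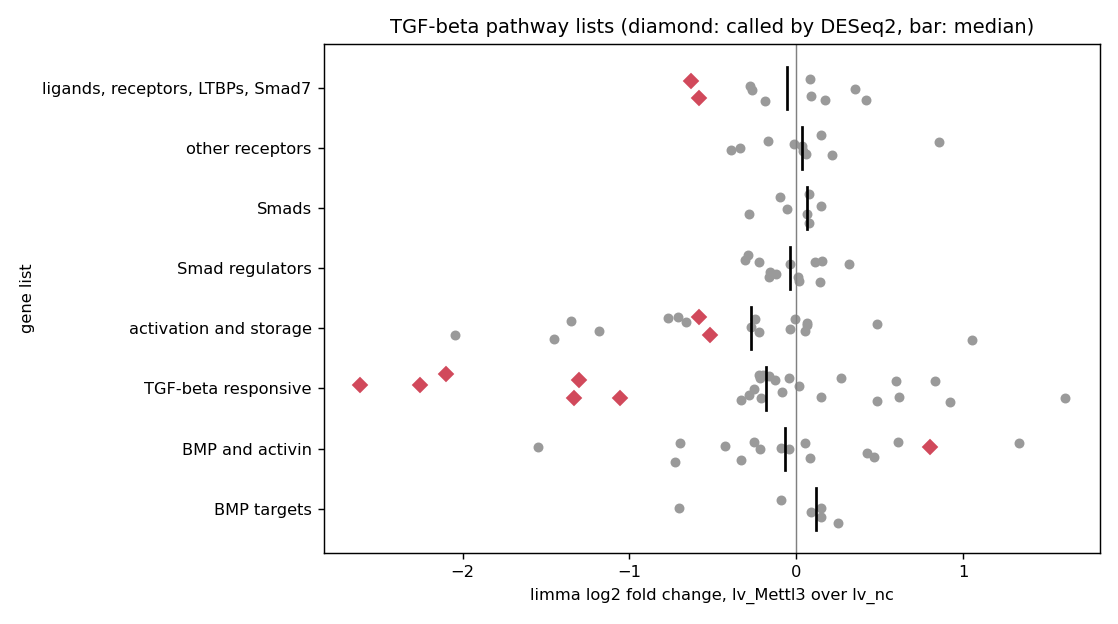
Limma log2 fold change of lv_Mettl3 over lv_nc (x axis) for each tested gene, by list (y axis), with diamonds for genes called by DESeq2 and a bar at the list median. The calls lie among the latency, storage and TGF-beta responsive genes, all below 0, apart from Bmp4 at 0.80.

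Some markers of fibroblasts and smooth muscle were lower in lv_Mettl3, as Ltbp3 and Ltbp4 were. Of 12 listed, 7 were found, and 6 of these had a DESeq2 adjusted p. DESeq2 called 4 of the 6, all lower, beside 1.07% called lower over all genes. The 4 were Col1a1, Col1a2, Col3a1 and Acta2, which also stand in the TGF-beta responsive list. The summed level of the 7 was 339 and 312 TPM in lv_Mettl3, against 727 and 627 in lv_nc. In this sum, as in Tagln and Acta2, lv_nc replicate 1 was the highest library. Col1a1, Col1a2 and Col3a1 were highest in lv_nc replicate 2, as Ltbp3 and Ltbp4 were. Col1a1 had 1033 and 876 normalized reads in lv_Mettl3, against 3914 and 8706 in lv_nc. Acta2 had 542 and 488 in lv_Mettl3, against 1531 and 748 in lv_nc. Tagln and Postn were not called, and Pdgfra had no DESeq2 adjusted p. Tagln had 2160 and 2152 normalized reads in lv_Mettl3, against 3778 and 1663 in lv_nc, and overlapped. Pdgfra, a receptor that marks fibroblasts, had 3.10 normalized reads or fewer in every library, and Postn had 442 and 326 in lv_Mettl3, against 379 and 357 in lv_nc. Their part in the lower Ltbp3 and Ltbp4 was not tested, and in bulk RNA fewer cells of a type and less RNA per cell cannot be told apart. The summed leukocyte and endothelial markers were at 4.92 TPM or less in every library.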

How the data were processed

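Polyadenylated RNA of 4 NRK-52E libraries was sequenced on an Illumina instrument, per the labels, and reads were processed with CASAVA 1.4 and HISAT2, per the submitters' processing notes. For the counter, strand setting, genome build and annotation, the sources used here give nothing. In the deposited table the library columns hold a signal, which the values show to be gene read counts that the authors divided by 1 size factor per library: 100% of values were whole multiples of the smallest positive value within 0.001 reads. The log2 fold changes and p-values in the authors' deposited table come from a tool that is not named, per the file headers. For the TGF-beta genes they equal the DESeq2 values given here after rounding.

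Normalized values were tested on the scale log2(value + 1) with limma 3.58.1 and its trend option as the main test. Genes needed 1 or more in 2 or more libraries, which left 16391, and p-values were adjusted over all of them (Benjamini-Hochberg, threshold 0.05). DESeq2 1.42.0 and edgeR 4.0.16 were run on the whole reads recovered from the signal (R 4.3.3), and tests were tried on simulated data. DESeq2 calls are given beside those of limma because limma called few genes. TPM used deposited gene lengths. Figures used matplotlib 3.10.9 under Python 3.11.15. Groups and replicate numbers came from the titles. The genes and lists were chosen with earlier results of these data known. Of each pathway list, the text names genes called by any of the 3 tests, up to 6, or else the 2 with the highest mean, besides Mettl3, Ccn2, Tgfbi and Skil. A withheld gene that the rule also picks is not reported here. Symbols that were not matched are not analysed here. Pseudocounts, filters, scaling, tests, a replicate block and each library were varied.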

Additional observations from a re-analysis of the deposited data

How the results depend on the processing

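The count of genes called over the whole table was 3 in limma as described. It was 0 with a pseudocount of 0.1, 5 with a filter of 10 or more in 2 or more libraries, 24 with robust empirical Bayes, 318 with DESeq2 and 5 with edgeR, and it was 0 in limma without each library in turn. DESeq2 called 56 without lv_Mettl3 replicate 1, 61 without lv_Mettl3 replicate 2, 1547 without lv_nc replicate 1 and 217 without lv_nc replicate 2. Of the 10 TGF-beta genes limma called 0, DESeq2 called 2, and fits without a library called 0 to 4. Of the pathway list limma called 0, robust empirical Bayes 1 and DESeq2 9, and fits without a library called 0 to 17, with 8 in DESeq2 without lv_nc replicate 2. The cause of these changes was not tested. With a replicate block limma called 3 genes over the whole table and 0 of the 10 TGF-beta genes and of the pathway list. The labels do not say that a number marks a shared culture, and 2 pairs are too few to decide it from the data (the deviations of same-numbered libraries correlated at 0.325 across genes), so the numbers were not taken as pairs.

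Of 180 alternative values for the 10 genes, 171 kept their direction and their side of the threshold, 7 passed a threshold that limma missed, and 2 reversed, both for Tgfb1 without lv_nc replicate 2 (log2 fold change 0.01127 in limma and 0.007866 in DESeq2, with a lowest value of -0.3943 in DESeq2 and -0.3924 in limma, both without lv_nc replicate 1). Much of the 171 was given in advance. The groups of 8 of the 10 genes did not overlap, so leaving out a library could hardly reverse them. Filters, robust empirical Bayes and the replicate block do not alter the limma fold change itself. The count is thus no measure of stability. With 2 libraries per group, an exact permutation test over libraries cannot go below 0.333. Scaling moved the median log2 fold change of all genes between -0.0346 (library total) and 0.0133 (TMM).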
